A study of Mus musculus with 6 samples.

Results

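The corticotropin-releasing hormone system was followed through nuclei of the mouse septal area as 5 genes of the 32285 in the deposited gene tables. They are Crh, the stress peptide corticotropin-releasing hormone (ENSMUSG00000049796), Ucn3, the related peptide urocortin 3 (ENSMUSG00000044988), Crhbp, the binding protein (ENSMUSG00000021680), and the receptors Crhr1 (ENSMUSG00000018634) and Crhr2 (ENSMUSG00000003476). They were picked by symbol, and each symbol had 1 row in every sample. The tissue came from wild type mice, sampled as 6 libraries labelled as brain with the septal area as brain area, and the 6 libraries form 1 group with no treatment. No source used here states age, sex, number of animals or dissection. With 1 group there is nothing to contrast between libraries, and cell classes were compared within them. Nothing ties the libraries to separate animals. The p-values therefore reflect variation among these 6 samples alone, and that variation may be technical.

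Corticotropin-releasing hormone and the urocortins are peptides that act on a pair of related G protein-coupled receptors, which raise cyclic AMP mainly through the stimulatory G protein. CRHR1 binds corticotropin-releasing hormone and urocortin, while CRHR2 prefers the urocortins and is the receptor that urocortin 3 acts on. CRHBP is a secreted protein that holds the free peptide away from receptors. The septum, and above all its lateral part, is known as a forebrain site of Crhr2 expression and as a relay between hippocampus and hypothalamus in stress and anxiety behaviour.

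The start regions of the receptor genes are shown as background, and no link between them and the levels below was tested. Each line gives the 250 bases before the gene start, 5′ to 3′ on the gene's strand, from RefSeq in GRCm38.p6, and capitals mark the letters TATAAA. The Crhr1 stretch lies at chr11:104132531-104132780 on the plus strand and the Crhr2 stretch at chr6:55133017-55133266 on the minus strand.
Crhr1: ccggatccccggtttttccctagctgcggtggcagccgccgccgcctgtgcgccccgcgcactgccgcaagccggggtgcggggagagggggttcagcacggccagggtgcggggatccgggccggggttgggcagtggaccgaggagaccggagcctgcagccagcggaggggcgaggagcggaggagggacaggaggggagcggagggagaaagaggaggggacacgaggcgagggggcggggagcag
Crhr2: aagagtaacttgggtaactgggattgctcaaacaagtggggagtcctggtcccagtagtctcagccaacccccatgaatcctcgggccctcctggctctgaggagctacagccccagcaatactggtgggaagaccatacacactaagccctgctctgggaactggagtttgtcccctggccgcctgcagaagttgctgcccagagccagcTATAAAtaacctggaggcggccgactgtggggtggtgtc
The Crhr1 stretch held 74.8% G and C, more than 95.8% of the 32851 promoters in the same table, whose median was 52.4%. The Crhr2 stretch held 57.6% G and C. TATAAA was searched on both strands. It occurred 1 time before Crhr2, on the gene's own strand with its first base 39 bases before the start, and 0 times before Crhr1, and 12.4% of all promoters of this length hold it. These letters describe the windows and say nothing about which factors bind there. Whether these nuclei use the starts shown was not tested. Promoters of 4 of the 5 genes were in the table, and Crh was not among them.

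Each library was a droplet preparation in which every RNA molecule carries a unique molecular identifier (UMI). The libraries held 70183544 to 95175260 UMIs, and 54623 of 55537 barcodes (98.4%) with at least 500 genes were kept and are called nuclei on the word of the series title. Classes were set by the share of UMIs that fell on marker genes, and 49265 nuclei (90.2%) fell into 1 class. A gated class is a range of a score and not a type: 2340 nuclei lay within 1.25-fold of the neuron threshold, and 2538, 408 and 841 lay that near the lateral septum, medial septum and medium spiny thresholds. The gates used the marker lists themselves, so marker levels describe the classes and are no check of their names. Lateral septum-like nuclei held 2256 to 2348 CPM (counts scaled to 1000000 UMIs of the class) over the 4 lateral septum markers. Medial septum-like nuclei held 1303 to 1634 CPM over their 5 markers and striatal medium spiny-like nuclei 2312 to 2727 CPM over their 6. Neurons numbered 24254, with a median of 11982 UMIs, and glia (astrocytes, oligodendrocytes, their precursors and microglia) 21061, with a median of 3815.

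The ligands of the system were rare in these nuclei. Ucn3 gave 3 UMIs in all 6 libraries and Ucn, the urocortin gene, gave 1, and at this depth 3 UMIs correspond to 0.00609 CPM over all nuclei. Ucn2, the urocortin 2 gene, gave 39 UMIs, each in a separate nucleus, at 0.0708 ± 0.0362 CPM in neurons and 0.0808 ± 0.0918 CPM in glia (SD, n = 6). None of the 3 urocortin genes passed the filter on low counts in the tests between classes.

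Crh gave 118 UMIs in 104 nuclei, and 83.1% of them lay in neurons. In neurons its level was 0.113 CPM in the lowest sample, 0.294 in the median and 0.452 in the highest, and in glia 0, 0.133 and 0.212. The ranges overlap. Crh failed the filter on low counts and had no test there, and with no filter the log2 difference was 1.24 ± 0.45 (SE; edgeR, adjusted p = 0.0198). Within GABAergic neurons, 54 of 87 Crh UMIs came from the other GABAergic nuclei, which passed either none or more than 1 of the septal and striatal gates (0.232, 0.567 and 0.992 CPM for the lowest, median and highest sample). Lateral septum-like nuclei held 30 UMIs (0.0703, 0.177 and 0.312 CPM), and their highest sample lay above the lowest sample of the other GABAergic nuclei. Glutamatergic neurons held 1 UMI of Crh and cholinergic neurons 0. At their depths 3 UMIs correspond to 0.256 CPM in glutamatergic and 0.856 CPM in cholinergic neurons.

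Crhbp was higher in neurons than in glia. Its 307 UMIs lay in 227 nuclei and 89.6% of them in neurons. The level in neurons was 0.541 CPM in the lowest sample, 0.776 in the median and 1.16 in the highest, against 0, 0.0989 and 0.515 in glia. The lowest neuron sample lay above the highest glia sample, and all 6 samples showed the direction. The edgeR estimate was a log2 difference of 2.24 ± 0.39 (SE; adjusted p = 1.26e-04).

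Crhbp was also lower in lateral septum-like than in medial septum-like nuclei. Medial septum-like nuclei held 27 UMIs, at 0.492, 2.48 and 7.95 CPM for the lowest, median and highest sample. They lay in 18 nuclei, with up to 6 in 1 nucleus, and 11 came from replicate 3. The nuclei with 6 Crhbp UMIs all belonged to neuron cluster 28 (described below). The comparison was not repeated without that cluster. Lateral septum-like nuclei held 117 UMIs at 0.395, 0.707 and 0.879 CPM. The ranges overlap through replicate 4, the lowest medial septum-like sample, yet within each of the 6 libraries the medial septum-like value was the higher. The log2 difference was -2.08 ± 0.43 (SE; edgeR, adjusted p = 4.13e-04). With 1 replicate left out at a time it was -2.30 to -1.65 (edgeR, adjusted p up to 0.0124). In this comparison 36.3% of the 16105 genes tested passed the threshold of 0.05, and 18.4% passed it in that direction.

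In striatal medium spiny-like nuclei the Crhbp level rested on 1 library. The class held 21 Crhbp UMIs, of which 16 came from replicate 6, and 14 of those lay in 1 nucleus. The levels were 0, 0.727 and 10.99 CPM for the lowest, median and highest sample. Against lateral septum-like nuclei the log2 difference was -1.64 ± 0.60 (SE; edgeR, adjusted p = 0.0522), with 3 of 6 samples in each direction, and without replicate 6 it was -0.08 (adjusted p = 0.959). It passed the threshold without replicate 2 (-1.89, adjusted p = 0.0214) and without replicate 5 (-1.91, adjusted p = 0.0250). In this comparison 26.2% of 16075 genes passed. Between GABAergic and glutamatergic neurons the Crhbp difference was 1.35 ± 0.66 (SE; edgeR, adjusted p = 0.152), from 242 and 4 UMIs. Cholinergic neurons held 0 UMIs of Crhbp, where 3 UMIs correspond to 0.856 CPM and the 95% exact Poisson limit is 1.05 CPM. GABAergic neurons held 0.861 ± 0.298 CPM (SD, n = 6), which is within that limit, and the test gave an adjusted p of 0.158.

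Both receptors were higher in neurons than in glia in every sample. Crhr2, with 4508 UMIs in all, stood at 11.2, 11.9 and 12.8 CPM in neurons for the lowest, median and highest sample. In glia it stood at 0.846, 1.17 and 1.46 CPM. The log2 difference was 3.48 ± 0.09 (SE; edgeR, adjusted p = 3.51e-13). Crhr1, with 3958 UMIs, stood at 10.2, 10.6 and 11.1 CPM in neurons and at 0.883, 1.10 and 1.73 CPM in glia, a log2 difference of 3.27 ± 0.11 (SE; adjusted p = 6.41e-12). No neuron sample overlapped a glia sample for either receptor. A difference between neurons and glia was common, as 84.6% of 19083 genes tested passed with 42.7% higher in neurons and 41.8% higher in glia.

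The share of nuclei with a receptor UMI showed the same order at equal depth. After thinning every nucleus to 2000 UMIs, 2.11% of neurons held a Crhr2 UMI (95% exact binomial interval 1.93 to 2.30%) and 0.267% of glia (0.200 to 0.351%). For Crhr1 the thinned shares were 1.83% (1.66 to 2.01%) and 0.231% (0.169 to 0.310%). Without thinning, 9.43% of neurons held a Crhr2 UMI and 11.1% a Crhr1 UMI, and of glia 0.489% and 0.503%. The intervals cover counting error only. Thinning left out 989 neurons and 1614 glia that were shallower than 2000 UMIs. Means over glial classes ran from 0.897 CPM in astrocytes to 1.90 in microglia for Crhr1 and from 0.961 in microglia to 1.48 in oligodendrocytes for Crhr2, with 5 and 4 UMIs in all microglia. Whether free RNA from neurons gives the glial UMIs was not tested.

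**Figure D1:**
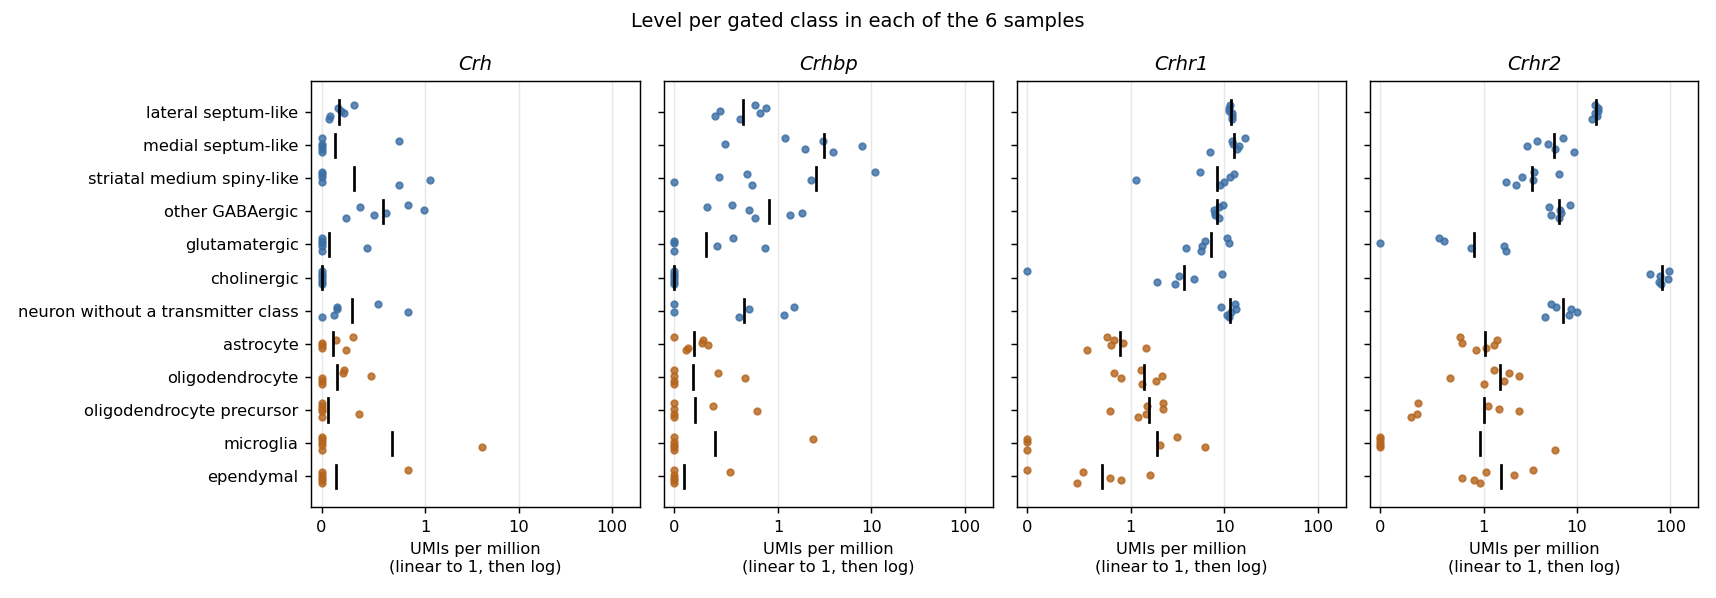
Level of Crh, Crhbp, Crhr1 and Crhr2 (horizontal axis, CPM, linear up to 1 and logarithmic above) in each gated class. Points are the 6 samples, black bars their mean, blue neuron classes and brown glial and ependymal classes. Crhr2 stands at 59.9 to 96.1 in the cholinergic class and at 0 to 1.74 in the glutamatergic class, while the Crhr1 ranges of neighbouring neuron classes overlap.

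Crhr2 separated the neuron classes widely. Its mean level ran in the order cholinergic (80.7 CPM), lateral septum-like (16.0), neurons without a transmitter class (7.12), other GABAergic (6.37), medial septum-like (5.65), striatal medium spiny-like (3.29) and glutamatergic neurons (0.908). The cholinergic and lateral septum-like classes each lay above the next in every sample, though the cholinergic class was mixed, as described below. The neighbours from there down overlapped in their sample ranges.

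GABAergic neurons held 11.6, 12.3 and 12.5 CPM of Crhr2 in the lowest, median and highest sample. Glutamatergic neurons, the class marked by vesicular glutamate transporters, held 0, 0.746 and 1.74 CPM from 12 UMIs in 883 nuclei. These ranges were far apart, with a log2 difference of 3.56 ± 0.28 (SE; edgeR, adjusted p = 1.28e-07) in the same direction in 6 of 6 samples. In that comparison 29.4% of 17413 genes passed and 16.1% were higher in GABAergic neurons.

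Among GABAergic neurons, Crhr2 was highest in the lateral septum-like class. That class held 14.5, 16.1 and 16.9 CPM, the medial septum-like class 2.89, 5.40 and 9.37 CPM and the medium spiny-like class 1.73, 2.98 and 6.35 CPM. All 6 lateral septum-like samples lay above all samples of both other classes. The log2 difference was 1.52 ± 0.19 (SE; edgeR, adjusted p = 3.65e-07) against medial septum-like and 2.35 ± 0.21 (adjusted p = 2.14e-08) against medium spiny-like nuclei. Genes higher in lateral septum-like nuclei made up 17.9% and 12.9% of those tested in these comparisons. Of the 10801 lateral septum-like nuclei, 10156 lay outside the neuron cluster with the most Crhr2 (cluster 7, described below). That cluster, 73.0% lateral septum-like by gate, held 46.3% of the Crhr2 UMIs in the kept neuron clusters. The differences therefore describe the class as a whole and not each of its neurons.

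Cholinergic neurons were gated by UMIs of at least 2 of the 4 cholinergic markers. No particular marker was required, so a nucleus could pass without a gene for loading acetylcholine. The gated class held 59.9, 78.5 and 96.1 CPM of Crhr2 from 280 UMIs in 178 nuclei. The log2 difference to GABAergic neurons was 2.64 ± 0.14 (SE; edgeR, adjusted p = 6.36e-23), where 12.6% of 17026 genes passed with 4.99% higher and 7.62% lower in cholinergic neurons. The gated class was mixed: 74 of its nuclei came from the neuron cluster with the most Crhr2 (cluster 7, described below) and 62 from cluster 40, in which no Crhr2 UMI was found. Without cluster 7 the difference was 1.25 (adjusted p = 1.58e-03), and with gates that ask for 2 times the marker share the cholinergic level was 37.8 CPM. Of the genes called, 39.6% were higher in cholinergic neurons, against 49.5% with RLE scaling factors and 53.0% with DESeq2, and the Crhr2 difference was 2.71 with both. The class was gated on the 4 cholinergic markers, so their presence in it (531 to 729 CPM in sum) follows from the gate. Lateral septum markers stood at 1172 to 1490 CPM in the class and GABAergic markers at 383 to 495 CPM.

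The Crhr1 levels of the neuron classes lay closer together. The mean level ran in the order medial septum-like (12.7 CPM), lateral septum-like (11.7), neurons without a transmitter class (11.6), other GABAergic (8.46), striatal medium spiny-like (8.30), glutamatergic (7.27) and cholinergic neurons (3.71), and each neighbouring pair overlapped in its sample ranges. Medial septum-like samples stood at 7.03, 13.0 and 16.6 CPM and lateral septum-like samples at 11.2, 11.8 and 12.3 CPM, so the lateral range lay inside the medial one. The log2 difference was -0.11 ± 0.15 (SE; edgeR, adjusted p = 0.602), and with those stricter gates 0.85 (adjusted p = 0.111). Against medium spiny-like nuclei (1.13, 9.48 and 12.7 CPM) the difference was 0.36 ± 0.21 (SE; adjusted p = 0.239).

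In glutamatergic neurons Crhr1 stood at 3.95, 5.96 and 11.4 CPM, with replicates 4 and 6 at 11.4 and 10.8 CPM and the other samples at 6.15 or less. GABAergic neurons held 10.1, 10.9 and 11.02 CPM, and the ranges overlap through those replicates. The log2 difference of 0.62 ± 0.19 (SE; edgeR, adjusted p = 0.0266) had the same direction in 5 of 6 samples. The call did not survive leaving out replicate 1, 2, 3 or 5, with values of 0.47 to 0.59 and adjusted p-values of 0.0733 to 0.0998. In cholinergic neurons Crhr1 stood at 0, 3.12 and 9.46 CPM from 14 UMIs, below GABAergic neurons in 6 of 6 samples. That log2 difference was -1.49 ± 0.37 (SE; edgeR, adjusted p = 2.20e-03), and without cluster 7 it was -1.03 (adjusted p = 0.0810).

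**Figure D2:**
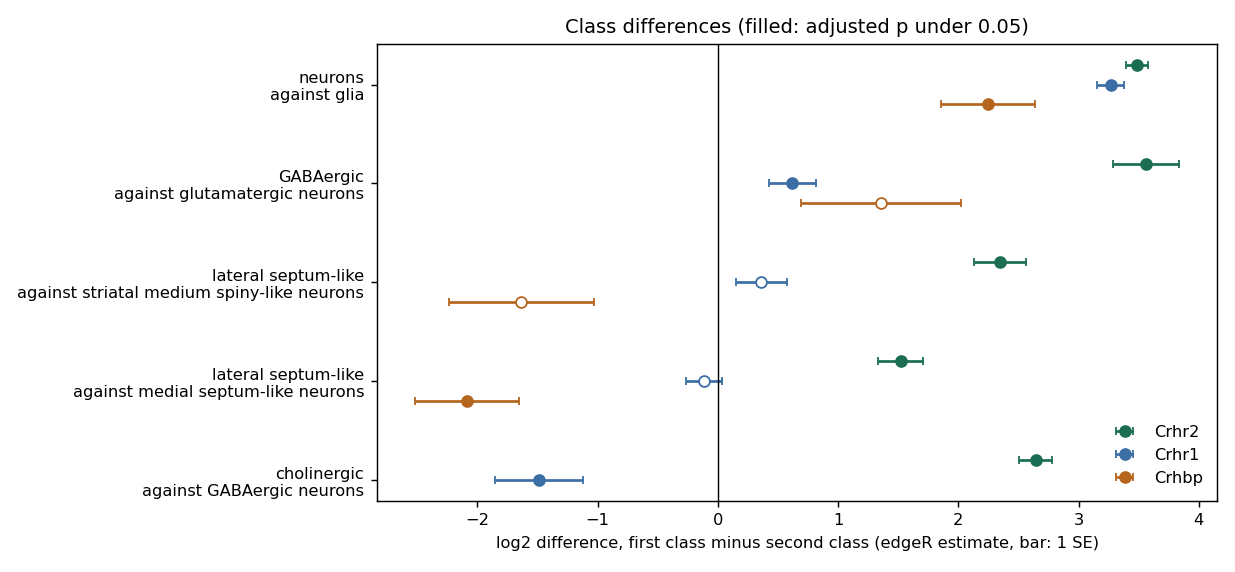
Log2 difference between classes (horizontal axis, first class minus second class, edgeR estimate with 1 SE) for Crhr2, Crhr1 and Crhbp in the 5 class comparisons, with filled points for an adjusted p under 0.05. Crhr2 lies between 1.52 and 3.56 in all 5, while Crhr1 lies between -1.49 and 0.62 in the 4 comparisons among neurons. Crhbp in cholinergic neurons, with 0 UMIs, is not drawn.

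To look below the level of gates, the 24254 neurons were clustered without the 5 genes among the features, and 35 of 41 clusters with 21346 nuclei were kept. Crhr2 was concentrated in few of them. Cluster 7, with 884 nuclei and led by Dach2, Tafa1 and Lama3, held 46.3% of the Crhr2 UMIs in kept clusters. Its level was 122, 131 and 142 CPM in the lowest, median and highest sample, and the lowest lay above the highest sample of the next cluster at 43.0 CPM. After thinning to 2000 UMIs, 24.8% of its nuclei held a Crhr2 UMI (95% exact binomial interval 22.0 to 27.8%). Most of cluster 7 (73.0%) was lateral septum-like by gate, and it carried Chat, the acetylcholine-making enzyme, at 64.8 CPM and Slc5a7, the choline transporter, at 16.7 CPM. The other cholinergic markers were low in it, with Slc18a3 at 0.464 and Slc10a4 at 0.851 CPM.

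The Crhr2 levels of the clusters that followed were 36.2 ± 4.82 CPM in cluster 13 (led by Ddr2 and Met), 27.7 ± 4.84 in cluster 15 (Kynu, Chga), 24.0 ± 8.22 in cluster 30 (Foxp2, Iqgap2) and 13.9 ± 3.45 in cluster 10 (Cpa6, Mctp2; SD, n = 6 each). These neighbours overlapped in their samples. Most nuclei of each were lateral septum-like by gate, from 69.0% in cluster 15 to 89.0% in cluster 10. Together with cluster 7 they held 72.3% of the Crhr2 UMIs in 16.0% of the kept nuclei. In 17 of 35 clusters every sample lay above every glia sample. Cluster 40 had 68 nuclei led by Slc5a7, Prima1 and Chat (503 CPM), with Lhx8 at 216 CPM, Slc18a3 at 5.55 CPM and Slc10a4 at 28.5 CPM. It held 0 Crhr2 UMIs, where 3 UMIs correspond to 2.38 CPM. Clusters 7 and 40, both with Chat, stood at opposite ends of the Crhr2 order.

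Crhr1 was spread over many clusters. In 24 of 35 every sample lay above every glia sample, and 16 clusters had a mean above 10 CPM, against 6 for Crhr2. Cluster 11, led by Pde1c, Rai14 and Lama3 and 81.7% lateral septum-like by gate, held the most, at 32.0, 36.0 and 45.6 CPM, and its lowest sample lay above the highest sample of cluster 10 at 29.4 CPM. Clusters 10, 16, 38 and 27 followed at 22.4 ± 3.49, 20.4 ± 3.40, 19.4 ± 9.38 and 18.1 ± 3.36 CPM (SD, n = 6 each), with overlapping samples. Cluster 16 was led by Onecut2 and held Slc17a6, a vesicular glutamate transporter gene, at 134.0 CPM beside Gad2, a gene of GABA synthesis, at 257 CPM, and cluster 27 was led by Casz1 and Sox6. These 5 clusters held 32.6% of the Crhr1 UMIs in 12.8% of the kept nuclei. The clusters led by Ebf2 and Ebf3 held little or none: cluster 2 had 1.11 CPM and cluster 37 had 0 UMIs.

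The clusters with the most of each receptor were not the same. Cluster 7 held 8.57 ± 2.11 CPM of Crhr1, near the cluster median of 9.44 CPM for that gene, and cluster 11 held 5.26 CPM of Crhr2, whose cluster median was 3.57 CPM. Clusters 13 and 10 were above the cluster median for both, with Crhr1 at 16.3 and 22.4 CPM. Over the 35 clusters the Pearson correlation of the receptors' log2(CPM + 1) was 0.25, given as a description because the clusters share libraries.

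**Figure D3:**
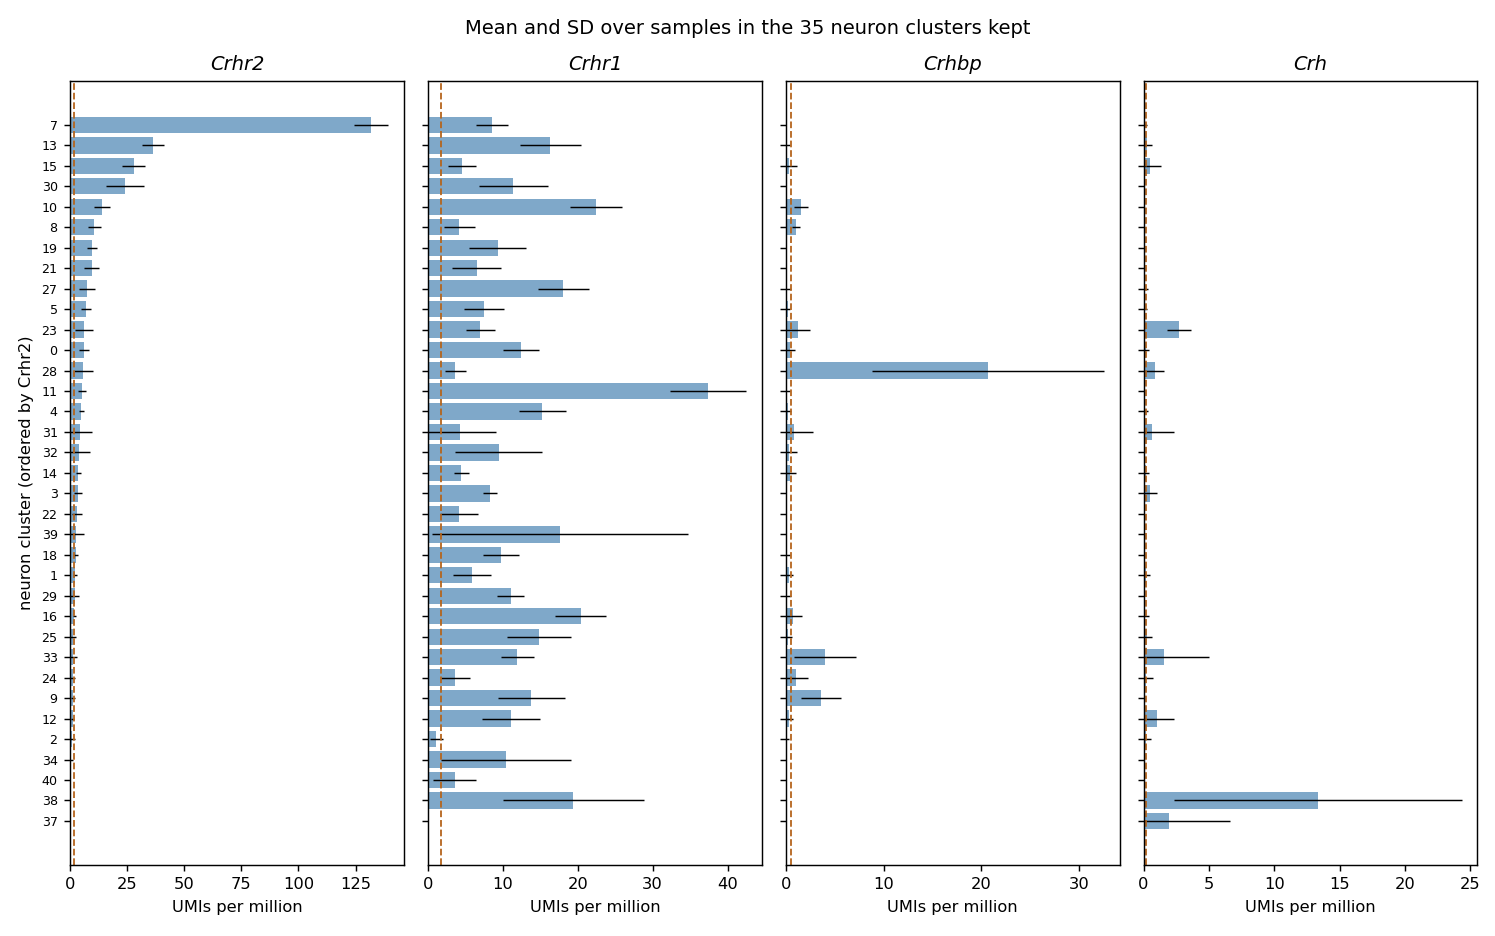
Mean level (bars, CPM) and SD over samples (lines) of the 4 detected members in the 35 kept neuron clusters, ordered by Crhr2. The dashed line is the highest glia sample. Crhr2 peaks in cluster 7 at 132, Crhr1 in cluster 11 at 37.4, Crhbp in cluster 28 at 20.7 and Crh in cluster 38 at 13.3.

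Crhbp was concentrated in cluster 28, whose 419 nuclei were led by Maf, Col19a1, Galnt14 and Egfr. It held 93 UMIs, 37.5% of those in kept clusters, in 10.3% of its nuclei, at 3.74, 19.4 and 34.9 CPM. The lowest sample was replicate 4 and the highest replicate 6, and the nucleus with 14 UMIs belongs to this cluster. Clusters 33 and 9 followed at 3.98 ± 3.18 and 3.61 ± 2.05 CPM (SD, n = 6), with samples that overlap cluster 28 only through replicate 4. In 4 of 35 clusters every sample lay above every glia sample. Cluster 7, the richest in Crhr2, had 0 UMIs of Crhbp, where 3 UMIs correspond to 0.232 CPM.

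Crh was most abundant in cluster 38, a small cluster of 83 nuclei led by Pde11a and Stk32a. It held 15 Crh UMIs, 16.7% of those in kept clusters, at 0, 12.4 and 30.6 CPM, with 0 in replicate 5. At clustering resolution 0.5 its nuclei made up 6.49% of a cluster of 1279, and that cluster, the highest for Crh, stood at 2.57 CPM. Cluster 23, led by Greb1, Adarb2 and Lhx6, followed with 20 UMIs at 1.49, 3.17 and 3.497 CPM, and was the only kept cluster in which every sample lay above every glia sample. Cluster 38 also held Crhr1 at 19.4 ± 9.38 CPM, and 0 UMIs of Crhr2, where 3 UMIs correspond to 3.08 CPM.

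The genes whose cluster pattern was most like that of each member were named by Pearson correlation of log2(CPM + 1) over the 35 clusters among 10926 genes with a mean of at least 5 CPM. For Crhr2 they were Gars (0.78), Focad (0.76), Cotl1 (0.76), Lama3 (0.75) and Cnnm2 (0.75). For Crhr1 they were Tafa5 (0.74), 4930567K12Rik (0.70), Col4a2 (0.69), Col4a1 (0.69) and Gm15083 (0.68). For Crhbp they were Ltbp1 (0.70), Maf (0.64), Sema3d (0.59), Egfr (0.55) and Creb5 (0.54). For Crh they were Vps35 (0.67), Stk32a (0.66), Taok3 (0.64), Napb (0.63) and Gfpt1 (0.60). Clusters share libraries and differ in depth, so these values are descriptions.

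Whether the receptors sit in the same nuclei was asked in GABAergic neurons with at least 5000 UMIs, each thinned to 5000. Of 18100 nuclei, 867 held a Crhr2 UMI alone, 834 a Crhr1 UMI alone and 51 both. A Crhr1 UMI was found in 5.56% of nuclei with Crhr2 and in 4.85% of the others, and across samples these shares ran from 3.08 to 8.07% and from 4.55 to 5.15%. In the sums per sample, Crhr1 stood at 12.5 ± 5.62 CPM in nuclei with a Crhr2 UMI and at 10.7 ± 0.595 CPM in those without (SD, n = 6), a log2 difference of 0.21 ± 0.22 (SE; edgeR, adjusted p = 0.684) with 3 of 6 samples in each direction. Conversely, Crhr2 stood at 14.99 ± 5.93 CPM in nuclei with a Crhr1 UMI and at 13.04 ± 0.904 CPM in those without, a difference of 0.23 ± 0.21 (SE; adjusted p = 0.747). A nucleus without a UMI at this depth may still express the gene.

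GABAergic nuclei with a Crhr2 UMI differed from the rest in many genes. Between 918 nuclei with and 17182 without, 1759 of 14199 genes (12.4%) passed, 806 higher (5.68%) and 953 lower (6.71%). Dach2, a transcription factor gene, stood at 605 to 706 CPM with and 48.7 to 68.7 CPM without a Crhr2 UMI, a log2 difference of 3.54 ± 0.05 (SE; edgeR, adjusted p = 5.48e-53). Lhx2, another transcription factor gene, differed by 3.46 ± 0.23, Chat by 3.03 ± 0.25 and the orphan receptor gene Gpr139 by 2.86 ± 0.17. Itpr3 (2.78), Lama3 (2.45), Mfsd13b (2.43), Tafa1 (2.21), Grid2ip (1.96) and Hhip (1.89) completed the 10 largest. All 10 were higher in every sample, which the rule for naming them required.

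Among genes lower in nuclei with Crhr2, Eya4 stood at 2.23 ± 1.76 CPM with and 21.5 ± 4.58 CPM without (SD, n = 6), a log2 difference of -3.08 ± 0.30 (SE; edgeR, adjusted p = 1.09e-12). Otof (-2.79), Lrtm1 (-2.77), the transcription factor gene Pax6 (-2.58), Prkch (-2.20) and the calcium channel gene Cacna1i (-2.18) followed. Next came Tmem132cos (-2.04), the calcium channel subunit gene Cacna2d3 (-1.98), the transcription factor gene Ebf1 (-1.89) and Stard5 (-1.86). Being lower in all 6 samples was part of the rule for naming these genes. Without cluster 7, Dach2 differed by 1.81, Lama3 by 1.37 and Tafa1 by 1.09, 758 genes passed and 17 of these 20 were still among them. Hhip (0.05, adjusted p = 0.990) and Mfsd13b (0.97, adjusted p = 0.457) were not, and Itpr3 was too low to be tested.

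GABAergic nuclei with a Crhr1 UMI also differed from the rest. Between 885 nuclei with and 17215 without, 671 of 14198 genes (4.73%) passed, 434 higher (3.06%) and 237 lower (1.67%). Stac2 stood at 54.7 to 155 CPM with and 25.8 to 35.2 CPM without a Crhr1 UMI, a log2 difference of 1.60 ± 0.11 (SE; edgeR, adjusted p = 3.11e-17). Mob3b differed by 1.43 ± 0.07, the secreted factor gene Ndnf by 1.40 ± 0.17, Colgalt2 by 1.34 ± 0.16 and Tacr1, the substance P receptor, by 1.33 ± 0.13. Igdcc3 (1.31), Grid2ip (1.15), the neurotrophin gene Ntf3 (1.10), the phosphodiesterase gene Pde1c (1.08) and the growth factor receptor gene Met (1.06) followed. Being higher in every sample was part of the rule for naming these 10.

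The genes lower in nuclei with Crhr1 were led by Sfta3-ps, at 15.5 ± 4.25 CPM with and 42.6 ± 4.61 CPM without (SD, n = 6), a log2 difference of -1.38 ± 0.15 (SE; edgeR, adjusted p = 5.52e-10). Otx2os1 (-1.27), Ttn (-1.12), the angiopoietin gene Angpt1 (-1.05), Svil (-1.03), Ccdc141 (-1.004), Ccbe1 (-0.94), Vwa5b1 (-0.91) and Tes (-0.90) followed. Being lower in all 6 samples was again part of the rule for naming them. Grid2ip, a partner of delta-type glutamate receptors, was the only gene among the 10 highest of both splits. Without thinning, 2525 genes passed for Crhr1 and 3174 for Crhr2, and with 3000 UMIs per nucleus 330 and 1084.

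**Figure D4:**
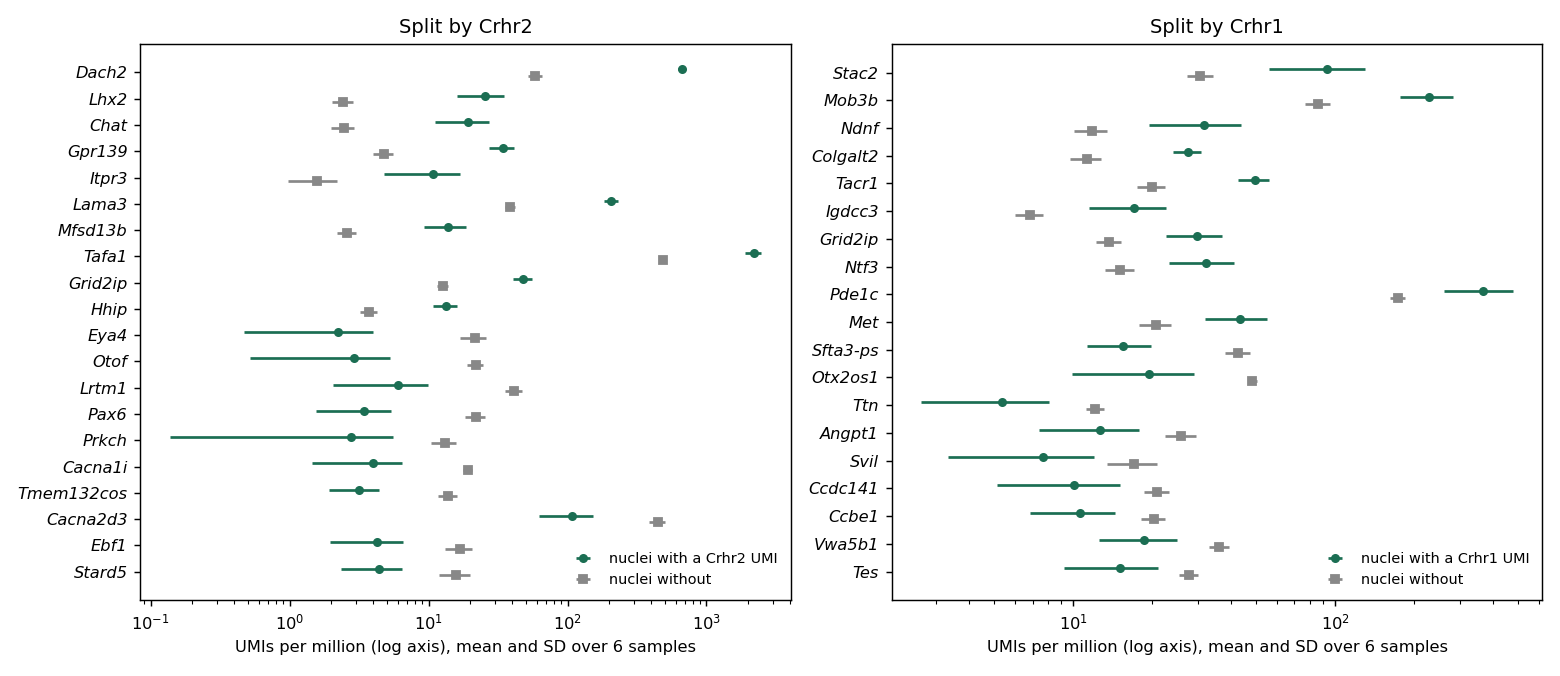
Level (horizontal log axis, CPM) of the named genes with the largest differences in each direction in GABAergic nuclei with a receptor UMI (green points) and without (grey squares), as mean and SD over 6 samples. Dach2 reaches 663 with and 58.8 without a Crhr2 UMI, and Stac2 reaches 93.0 with and 30.6 without a Crhr1 UMI. The lower end of the green line for Prkch, whose SD exceeds its mean, is cut because a log axis has no 0.

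At 5000 UMIs, 63 GABAergic nuclei held a Crhbp UMI and 26 a Crh UMI. A split was fitted only where at least 4 samples had 10 nuclei on each side, and with 3 such samples for Crhbp and 0 for Crh it was not run for either. With all UMIs of the same nuclei, an alternative in which depth differs between the sides, 172 nuclei with Crhbp gave 426 of 16999 genes past the threshold, 220 higher and 206 lower. Gna14 (3.47 ± 0.41), Igfbp4 (3.21 ± 0.47) and Maf (3.09 ± 0.20; log2 difference ± SE) were among the highest. For Crh, 71 nuclei in 6 samples held a UMI, and the 5 samples with at least 10 of them gave 402 of 16765 genes, 115 higher and 287 lower. They were led by Tac2, the neurokinin B precursor (4.19 ± 0.65), Nmu, the neuromedin U precursor (3.99 ± 0.72), Stat4 (3.95 ± 0.55) and Pde11a (3.58 ± 0.16).

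The genes through which the receptors signal were measured in full. Of 28 genes for G protein subunits, adenylyl cyclases, protein kinase A, its nuclear targets, arrestins and cyclic AMP exchange factors, 17 were higher and 7 lower in neurons than in glia, and these 85.7% lay near the 84.6% of all genes. The median log2 difference was 0.29 beside 0.02 over all genes. Gnal, a stimulatory G protein subunit, stood at 260 ± 11.99 CPM in neurons and 44.4 ± 5.66 in glia (SD, n = 6). Between GABAergic and glutamatergic neurons 10 were higher and 5 lower (53.6%, beside 29.4% of all genes), and Gnal differed by 1.42 ± 0.06 on the log2 scale (SE). Between lateral and medial septum-like nuclei 10 were higher and 5 lower (53.6%, beside 36.3%), among them the adenylyl cyclase gene Adcy5 at 0.64 ± 0.07 and Adcy8 at -1.17 ± 0.07, and against medium spiny-like nuclei 8 were higher and 8 lower (57.1%, beside 26.2%). In cholinergic against GABAergic neurons 4 were higher and 5 lower (32.1%, beside 12.6%). In nuclei with a Crhr2 UMI 2 were higher (Gnal and Adcy1) and 4 lower (Adcy2, Adcy7, Adcy8 and Prkar2b), with Adcy8 at -1.05 ± 0.09, or 21.4% beside 12.4% of all genes. In those with a Crhr1 UMI Adcy9 was higher, at 0.23 ± 0.07, and 0 were lower, or 3.57% beside 4.73%. Genes of this list in the splits were named after their values were seen.

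Genes of the stress hormone axis were tested beside the members where their counts allowed. Of 13, 11 were tested between neurons and glia, and 7 were higher and 3 lower in neurons (90.9%, beside 84.6% of all genes). Mc4r, Avpr1a and Oxtr, among the higher, stood at 0.671, 0.510 and 1.33 CPM in neurons and 0.237, 0.208 and 0.252 CPM in glia. Genes this low can pass the filter on low counts through neurons alone, so their direction is partly set by the filter. The genes lower in neurons were Nr3c1, the glucocorticoid receptor (-1.13 ± 0.03), Hsd11b1, the glucocorticoid-activating enzyme (-2.63 ± 0.11), and Tsc22d3, a glucocorticoid-induced gene (-3.93 ± 0.07; log2 difference ± SE). Nr3c2, the mineralocorticoid receptor, shared the direction of Crhr2 in both lateral septum comparisons, at 0.85 ± 0.05 against medial septum-like and 0.85 ± 0.06 against medium spiny-like nuclei. In cholinergic against GABAergic neurons, where Crhr2 was higher, it was lower (-0.54 ± 0.08; log2 difference ± SE). In GABAergic against glutamatergic neurons 5 of 9 tested were higher and 1 lower (66.7%, beside 29.4% of all genes). Oxtr, among the higher, stood at 1.40 and 0.388 CPM and can have passed the filter through GABAergic neurons alone. In lateral against medial septum-like nuclei 4 of 8 were higher and 1 lower (62.5%, beside 36.3%), and against medium spiny-like nuclei 1 of 8 was higher and 3 lower (50%, beside 26.2%). In cholinergic against GABAergic neurons 0 of 9 were higher and 3 lower (33.3%, beside 12.6%). In the splits 1 of 8 was higher and 1 lower with Crhr2 (25%, beside 12.4%), and 2 of 8 higher and 1 lower with Crhr1 (37.5%, beside 4.73%), and these genes too were named after their values were seen. Nr3c2 was higher in nuclei with a Crhr2 UMI (0.75 ± 0.04) and in nuclei with a Crhr1 UMI (0.69 ± 0.05). Oxtr, the oxytocin receptor, was higher (1.63 ± 0.49) and Nr3c1 lower (-0.44 ± 0.09) with Crhr1, and Sgk1 was lower with Crhr2 (-0.41 ± 0.10; log2 difference ± SE). Oxtr stood at only 1.40 ± 0.288 CPM in all GABAergic neurons (SD, n = 6), so its difference rests on few UMIs.

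Of 16 other neuropeptide precursors, 10 could be tested between neurons and glia and 10 were higher in neurons, as were 42.7% of all genes. Precursors with few UMIs can pass the filter on low counts through neurons alone, so this count is partly set by the filter. Tac2, for example, stood at 0.599 ± 0.160 CPM in neurons and 0.157 ± 0.0992 CPM in glia (SD, n = 6). In lateral against medial septum-like nuclei 1 of 7 tested was higher and 3 lower (57.1%, beside 36.3% of all genes): Nts, the neurotensin precursor, at 2.91 ± 0.28, and Npy, Penk and Sst at -4.47 ± 0.42, -1.92 ± 0.17 and -0.81 ± 0.23 (log2 difference ± SE). Against medium spiny-like nuclei 1 of 7 was higher and 4 lower (71.4%, beside 26.2%), and in GABAergic against glutamatergic neurons 6 of 10 were higher and 1 lower (70%, beside 29.4%). Tac2, among the higher, stood at 0.663 CPM in GABAergic and 0.0944 CPM in glutamatergic neurons, and Cck, the lower, at 0.264 and 1.93 CPM. Genes this low can pass the filter through the class where they are higher. In cholinergic against GABAergic neurons 0 of 8 were higher and 1 lower, and these 12.5% lay near the 12.6% of all genes. That gene was Nts (-1.03, adjusted p = 0.0494), whose call was lost in 4 of 6 fits that left out 1 replicate, with adjusted p-values up to 0.198. In each of the receptor splits 0 of 6 were higher and 2 lower (33.3%, beside 12.4% for Crhr2 and 4.73% for Crhr1), named after their values were seen. They were Nts (-1.14 ± 0.30) and Penk (-1.37 ± 0.34) with Crhr2, and Nts (-1.75 ± 0.36) and Cartpt (-2.10 ± 0.60) with Crhr1. Cartpt stood at only 3.45 ± 0.612 CPM in all neurons (SD, n = 6), so its difference rests on few UMIs.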

How the data were processed

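Gene counts of 6 septal-area libraries were made by the authors with the 10x Genomics 3' v3 chemistry. What was deposited is a count of UMIs for every gene in every barcode, with no normalization. Cell Ranger 3.1.0 and STAR are named in the submitters' processing notes, while Cell Ranger 5.0.0 stands in the file headers. No source used here states the genome build or how intronic reads were handled. The series title speaks of nuclei and the labels' protocols of cells.

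Barcodes with at least 500 genes were kept. Classes were set by the UMIs per 10000 that fell on marker lists, with thresholds set after the data were seen, and barcodes that passed more than 1 gate were left out (4620), except that GABAergic nuclei passing more than 1 of the septal and striatal gates stayed among the other GABAergic nuclei. The members and lists were chosen with earlier results of these data known. UMIs were summed per sample and class. Sums were tested with edgeR 4.0.16 in R 4.3.3 (quasi-likelihood, TMM, filter on low counts, Benjamini-Hochberg over all genes tested, threshold 0.05). The SE of a log2 difference was derived from the test, as its absolute value over the square root of the quasi-likelihood F statistic. The sample entered as a block because both classes come from the same library. A gene with few UMIs can pass the filter through 1 class alone, so the direction of such genes is partly set by the filter. A sample needed 10 nuclei on each side, and a fit 4 such samples. On simulated data for lateral against medial septum-like neurons (16128 genes), 36.5% of changes of log2 0.5, 66.2% of log2 1 and 98.3% of log2 2 were recovered, and 4.62% of calls were false. For the Crhr2 split (14245 genes) the shares were 16.7%, 78.0%, 96.6% and 4.27%. The simulation gave every gene the same dispersion and changed few genes, none of them with low counts. Its rates need not hold for the real comparisons or for genes with few UMIs.

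Neurons were clustered in Python 3.11.15 with leidenalg 0.10.2 (2000 features without the 5 members, 40 components, 20 neighbours, resolution 1). A doublet score from simulated pairs of barcodes marked 3937 barcodes (7.21%). They stayed in, except that 5 clusters with at least 50% of them and 1 shallow cluster were set aside, and leaving them out was an alternative. For receptor splits each GABAergic nucleus was thinned to 5000 UMIs.

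Named genes were the members, up to 3 genes per list and direction in each class comparison with the largest log2 difference past the threshold, and 10 per direction in each split with at least 10 CPM on the higher side and 1 direction in every sample (names of Gm and a number or ending in Rik left out). One gene that this rule picks is not reported here. The 5 genes most like each member over clusters were added. The lists were related ligands, receptor signalling, the stress hormone axis and other neuropeptide precursors. Alternatives were RLE factors, no filter, no block, DESeq2 1.42.0, each replicate left out, 1000 genes per barcode, stricter gates, predicted doublets left out, other thinning and other resolutions. Leaving out cluster 7 or the clusters set aside, and other resolutions, were chosen after seeing the data.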

Additional observations from a re-analysis of the deposited data

Results flagged for a closer look

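Of 41 levels with at least 30 UMIs, 3 had a sample far from the other 5, judged by its gap over the whole range of the 6 samples against Dixon's 95% critical value. Chance gives such a sample in about 1 of 20 levels. Crhr2 in GABAergic neurons was 11.61 CPM in replicate 1, below the 12.3 to 12.53 CPM of the others. Crhr2 in striatal medium spiny-like nuclei was 6.347 CPM in replicate 5, above the 1.734 to 3.436 CPM of the others, from 30 UMIs in the whole class. Crhr1 in cluster 10 was 29.44 CPM in replicate 6, above the 20.37 to 21.9 CPM of the others.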

How the results depend on the processing

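Of 247 recomputed differences of members, 232 kept direction and side of the threshold, 7 lost the call, 5 gained it and 3 changed sign. Of 1559 of other named genes, 82 lost the call. Of 103 recomputed counts of called genes, 96 stayed within 1.5 times. The cause of each change was not tested.

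Gates asking for 2 times the marker share (169 medium spiny-like, 162 medial septum-like and 95 cholinergic nuclei left) gave 1823 calls in lateral septum-like against medium spiny-like and 3136 against medial septum-like neurons. They moved Crhr1 to 0.19 (adjusted p = 0.499) in GABAergic against glutamatergic, to -0.89 (0.209) in cholinergic against GABAergic and to 0.85 (0.111) in lateral against medial septum-like neurons, the last with its sign changed. Without cluster 7 Crhr1 was -1.03 (0.0810) in cholinergic neurons and the Crhr2 split had 758 calls. Leaving out 1 replicate gave Crhr1 0.47 to 0.77 in GABAergic against glutamatergic neurons, and Crhbp -1.908 to -0.0822 in lateral septum-like against medium spiny-like neurons.

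For that Crhbp difference the value was -1.54 (adjusted p = 0.0206) with no filter, -1.77 (0.0350) with predicted doublets out, -1.87 (0.0239) without the clusters set aside and -0.92 (0.425) with DESeq2. Without replicate 3 and with stricter gates it could not be tested. No thinning gave 3174 calls in the Crhr2 split, with Crhr1 at -0.0203, and 2525 in the Crhr1 split, with Crhr2 at -0.15. Thinning to 3000 UMIs gave 1084 and 330. Without the replicate block no member's call changed: Crhr2 in neurons against glia was 3.49, and Crhr1 in GABAergic against glutamatergic neurons 0.62 (adjusted p = 0.00705). At resolutions 0.5 and 2 the highest Crhr2 cluster stood at 108.0 and 140.0 CPM, and the highest Crh cluster at 2.57 and 13.3 CPM. Other alternatives of the Crhbp and Crh splits were not run.

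Depth limits Crh, Ucn3, Ucn and Ucn2, and Crhbp outside GABAergic neurons. Gates define ranges of a score, and nothing ties libraries to animals.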

Other observations

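Gars, the glycyl-tRNA synthetase gene, had the cluster pattern most like that of Crhr2 (Pearson r 0.78 over 35 clusters) and is a protein-coding neighbour of Crhr2 in the RefSeq gene order, on the opposite strand. In GABAergic nuclei with a Crhr2 UMI it stood at 63.4 ± 12.4 CPM, and at 44.7 ± 1.40 CPM in those without (SD, n = 6), a log2 difference of 0.53 ± 0.10 (SE; edgeR, adjusted p = 5.70e-05) with 6 of 6 samples higher. Without cluster 7 the difference was 0.47 (adjusted p = 0.00925). In nuclei with a Crhr1 UMI it was 0.01 ± 0.11 (adjusted p = 0.985). Gars was picked by its cluster pattern in these same nuclei, so its difference in the Crhr2 split is no independent support. Whether reads from one gene are counted for the other was not tested.

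Barcodes that passed more than 1 gate, which entered no class, held 206 Crhr2 UMIs (5.21 ± 2.15 CPM) and 152 Crhr1 UMIs (3.83 ± 1.16 CPM; SD, n = 6). Endothelial nuclei held 7 Crhr1 UMIs at 4.54 ± 3.27 CPM, with 0 in the lowest sample and 9.75 in the highest.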
